A study of Mus musculus with 23 samples.

Results

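Untreated cultures of mouse lung epithelial cells at day 4 were compared with the same kind of culture on the day of airlift, which is the day the medium is taken off the upper face of the cell layer so that it meets air. The comparison used 13 of the 23 libraries of the study, chosen by their labels: 6 libraries from the day of airlift and 7 from the untreated control cultures of day 4. Both groups were cells of the lung of C57BL/6 wild type mice (C57BL/6J in the description of the design) selected for the surface protein EpCAM and grown in transwells, and both were left untreated. The libraries belong to 3 experiments (A, B and C), with 2 airlift libraries in each and with 2, 2 and 3 libraries of day 4. Freshly isolated cells (3 libraries, 1 per experiment) are given for reference and did not enter the test. No source used here gives the age or sex of the mice, the days from isolation to airlift, or whether replicates were separate animals or wells. The p-values therefore rest on the spread among these libraries, which may be technical.

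EpCAM is carried by most epithelial cells of the lung. In the alveoli these are alveolar type 2 (AT2) cells, which make surfactant and can renew the epithelium, and alveolar type 1 (AT1) cells, the thin cells of gas exchange. In the airways they are club cells, which secrete protective proteins, goblet cells, which make mucins, multiciliated cells, which move the mucus, and basal cells, the stem cells that lie on the basement membrane. Under medium, oxygen reaches the cells by diffusion through the liquid, and exposure to air is the usual way to make airway cells in culture form cilia and secrete.

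Each of the 13 libraries held 32323375 to 39081663 counts. The label calls the cells airway epithelial cells, and the epithelial markers Epcam (321 to 460 CPM) and Cdh1 (1035 to 1375 CPM) were present in every library, where CPM is the usual unit of a gene's count over its scaled library total. Markers of the alveoli were present as well, with Sftpc at 489 to 2561 CPM and Ager at 299 to 1094 CPM. On the first principal component of the 13 libraries, which held 63% of the variance, the airlift and the day 4 libraries lay apart. Replicate 1 of day 4 in experiment C stood apart from the other two libraries of its set, with a chi-square per gene of 65.7 and 60.5 against the others, where that pair differed by 8.83. Levels in CPM are not corrected for gene length and are compared between libraries for a gene, not between genes. Whether the counting used strand is not stated, so reads of overlapping or antisense genes cannot be told apart.

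Of 16719 genes tested, 9581 (57.3%) differed between the stages, 4912 (29.4%) higher and 4669 (27.9%) lower at day 4 (edgeR quasi-likelihood test with experiment as a block, Benjamini-Hochberg adjusted p below 0.05). A change of at least 2-fold was called for 1080 genes that rose and 970 that fell. Of the called genes, 96.3% had the same sign in all 3 experiments. Genes were called on these experiments together, so that share is partly set by the selection. It does not measure how far the experiments repeat each other. In tests within single experiments, 8933 of 16884 genes passed in A, 7047 of 16948 in B and 5132 of 17230 in C. A set of 3414 genes passed in every experiment and changed in a single direction. The median log2 fold change of all genes was -0.004. Without replicate 1 of day 4 in experiment C, 9613 genes were called. Since 57.3% of all genes were called, each count for a gene group below stands against the shares of 29.4% and 27.9%, and its median against -0.004. The share of all genes whose groups do not overlap was not counted. A lack of overlap below therefore describes the gene and does not set it apart from other genes. Log2 fold changes are day 4 over airlift with their standard error, and 3 CPM values for a group are those of its lowest, median and highest library.

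Most genes of AT2 cells rose. Of 16 tested, 13 rose and 1 fell, with a median log2 change of 1.15, and 12 rose at least 2-fold. Lgi3, a secreted protein of AT2 cells, had 5.17, 6.70 and 11.1 CPM at airlift and 69.5, 77.1 and 94.99 CPM at day 4, a log2 change of 3.38 ± 0.14 (edgeR adjusted p = 5.58e-10). Its day 4 libraries all lay above its airlift libraries, and the level in fresh cells was 531 ± 50.6 CPM (SD, n = 3). Hc, which encodes complement component C5, was at 5.61, 7.23 and 8.29 CPM at airlift and 87.9, 116 and 135 CPM at day 4 and rose by 3.92 ± 0.14. Napsa, a protease that processes surfactant protein B, rose by 1.52 ± 0.10 and Sftpb itself by 1.17 ± 0.07, with 202, 251 and 298 CPM at airlift and 488, 570.1 and 654 CPM at day 4. The groups did not overlap for any of these genes. Sftpa1, which encodes surfactant protein A, did not pass the test (51.02, 72.8 and 83.5 CPM at airlift, 34.1, 82.2 and 88.9 CPM at day 4, 0.11 ± 0.17). Sfta2 fell by 0.60 ± 0.10 on the log2 scale. Sftpc, the defining marker, was at 61783 ± 9599 CPM in fresh cells, 489, 584 and 643 CPM at airlift and 1881, 2108 and 2561 CPM at day 4, so every day 4 library was above every airlift library and below every fresh one. In bulk RNA, a change in the number of cells of a type cannot be told apart from a change in the RNA of a gene in each cell.

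Genes of AT1 cells rose as well, with a lower median than those of AT2 cells. Of 16 tested, 12 rose and 1 (Cav2) fell, with a median of 0.62. Cav2 lost its call without replicate 2 of airlift in experiment A or B, either day 4 replicate of A or replicate 2 of day 4 in B (-0.17 to -0.14). Ager, a receptor of the AT1 membrane, had 299, 354 and 473 CPM at airlift and 829.3, 899.5 and 1094 CPM at day 4 and 893 ± 133 CPM in fresh cells (SD, n = 3), so the day 4 and the fresh libraries overlapped. Col4a3 and Col4a4, chains of the collagen of the alveolar basement membrane, rose by 1.63 ± 0.14 and 1.22 ± 0.13. Aqp5, a water channel of AT1 and other lung epithelial cells, was at 426, 509 and 580.3 CPM at airlift and 804, 896 and 1003 CPM at day 4 and rose by 0.79 ± 0.07 (edgeR adjusted p = 4.14e-08). The largest change of the list was in Rtkn2, with 0.993, 1.21 and 2.33 CPM at airlift and 13.5, 18.5 and 34.3 CPM at day 4, and its highest value at either stage came from replicate 1 of experiment C.

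Basal cell genes had the largest median of the airway lists, 2.49, and 13 of 14 tested rose. The size of the rise differed between the experiments: the median of the list was 1.21 in experiment A, 3.35 in B and 2.28 in C. Krt5, the keratin that defines basal cells, was at 10.4 and 11.7 CPM in the airlift libraries of experiment A, 2.56 and 2.53 CPM in those of B and 18.1 and 13.97 CPM in those of C. At day 4 the same experiments had 39.9 and 52.5 CPM, 107 and 147 CPM and 169, 99.98 and 106 CPM. All day 4 libraries were above all airlift libraries, and experiment B went from the lowest airlift levels to levels near those of C. The test of a different change between experiments called Krt5 (adjusted p = 0.015, edgeR interaction test), Krt15 (adjusted p = 0.0092), Krt17 (adjusted p = 0.024) and Trp63 (adjusted p = 0.042), 4 of 14 where 2.42% of all genes were called. Of 16 alternative fits of that test, 15 called Krt5, 15 Krt15, 8 Krt17 and 5 Trp63. Without replicate 2 of airlift in experiment B, Krt5 and Krt15 missed the threshold, at adjusted p of 0.073 and 0.051, and Trp63 missed it also with library totals alone. With counts summed per experiment and group, the rises of Krt5 (3.38), Krt17 (2.27) and Krt15 (1.28) from airlift to day 4 were not called. The rise of Krt15 was also not called with same-numbered libraries as a block (1.24) or without experiment C (1.38). Col17a1, the collagen that anchors basal cells to the basement membrane, had 0.554, 1.42 and 3.81 CPM at airlift and 12.01, 26.2 and 45.3 CPM at day 4 and rose by 3.75 ± 0.33 (edgeR adjusted p = 1.68e-06). Aqp3, a water and glycerol channel of basal cells, rose by 2.85 ± 0.34. Bcam, a laminin receptor, rose by 0.64 ± 0.08 with 443, 509 and 630.0 CPM at airlift and 749.7, 788 and 1022 CPM at day 4, and its groups did not overlap.

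Club and secretory genes moved both ways. Of 15 tested, 7 rose and 4 fell, with a median of 0.45, and the median was -0.22 in experiment A, 0.66 in B and 0.56 in C. Scgb1a1, the main secreted protein of club cells, fell from 18722, 21510 and 26032 CPM at airlift to 2542, 2802 and 3831 CPM at day 4, where fresh cells held 149978 ± 6020 CPM. Its relatives split: Scgb3a1 fell by 1.59 ± 0.23 on the log2 scale (not called, at -1.62, with counts summed per experiment and group), while Scgb3a2 rose by 2.64 ± 0.20, with 4.72, 5.57 and 14.6 CPM at airlift and 18.3, 49.8 and 101 CPM at day 4. Cyp2f2, a cytochrome P450 of club cells, had 73.2, 106 and 162 CPM at airlift and 372, 563 and 937 CPM at day 4 and rose by 2.31 ± 0.16 (edgeR adjusted p = 1.41e-07). Hp, which encodes the hemoglobin-binding protein haptoglobin, had 90.3, 116 and 194 CPM at airlift and 1737, 1919 and 2506 CPM at day 4, a change of 4.01 ± 0.15, and the day 4 libraries spanned the fresh level of 1931 ± 138 CPM (SD, n = 3). Por, the reductase that feeds electrons to cytochromes P450, fell by 0.90 ± 0.06 on the log2 scale, from 745, 866 and 985 CPM to 431, 469.5 and 518 CPM. Thus within this list the day 4 libraries were lower for the club cell protein with most counts and higher for Cyp2f2 and Scgb3a2, with no overlap for any of the 3.

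Of 16 mucin and goblet genes 10 rose and 2 (Tff2 and Gcnt3) fell, with a median of 0.69. Agr2, a chaperone needed for mucin folding, was close to the limit of counting at airlift, with 0.0993, 0.295 and 0.316 CPM at airlift and 1.20, 3.54 and 6.91 CPM at day 4, and rose by 3.53 ± 0.32 (edgeR adjusted p = 1.89e-07). Muc5b, the main airway mucin of the mouse, had 4.59, 7.88 and 9.13 CPM at airlift and 28.9, 44.96 and 87.6 CPM at day 4 where fresh cells had 351 ± 114 CPM (SD, n = 3). Tff2, a trefoil peptide secreted with mucus, fell by 1.91 ± 0.21 on the log2 scale, from 1.16, 1.91 and 2.38 CPM to 0.342, 0.498 and 0.710 CPM. The groups did not overlap for these 3 genes. The mucin Muc2 was not in this list and fell by 4.46 ± 0.12 on the log2 scale. It went from 15.4, 21.7 and 25.01 CPM at airlift to 0.685, 1.03 and 1.25 CPM at day 4.

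The early regulators of multiciliated cells had a higher median change than the parts of the cilium. Of 15 regulators tested 8 rose and 3 fell, with a median of 0.90. Mcidas, a coregulator at the head of the programme, had 0, 0.0789 and 0.817 CPM at airlift and 3.09, 8.60 and 20.4 CPM at day 4 and rose by 5.59 ± 0.41, the largest rise of the list, from levels close to 0. Ccno, a cyclin-like protein needed to make many centrioles, had 0.949, 1.25 and 2.82 CPM at airlift and 14.04, 26.1 and 50.95 CPM at day 4 and rose by 4.12 ± 0.27 (edgeR adjusted p = 1.09e-07). Cdc20b, the host gene of microRNAs of multiciliated cells, rose by 3.56 ± 0.37, and Foxn4, a transcription factor of the same step, by 2.89 ± 0.30. Gmnc, which acts beside Mcidas, rose by 2.18 ± 0.30, and Myb, which acts early in it, by 1.95 ± 0.22. Foxj1, the regulator of motile cilium genes, had 33.96, 51.4 and 90.7 CPM at airlift and 92.04, 137 and 229.6 CPM at day 4, and its highest library was again replicate 1 of day 4 in experiment C. Of 13 genes of centriole amplification 5 rose and 2 fell, with a median of 0.07, and Deup1, which builds the deuterosomes on which centrioles form, was the single one to rise at least 2-fold (0.496, 0.992 and 1.63 CPM at airlift, 4.58, 9.60 and 26.8 CPM at day 4). Of 20 motile cilium components 13 rose and 2 fell, with a median of 0.39. That median was -0.002 in experiment A, 0.54 in B and 0.47 in C. Dnai1, an intermediate chain of the dynein arms, had 2.06, 2.70 and 4.80 CPM at airlift and 3.65, 4.81 and 7.77 CPM at day 4, a change of 0.76 ± 0.11, with overlapping groups. For none of the components did the rise reach 2-fold. Tubb4b, a tubulin of cilia that other cells also use, fell by 1.18 ± 0.05 on the log2 scale, from 898, 995 and 1022 CPM to 405, 440.0 and 468 CPM, without overlap.

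**Figure D1:**
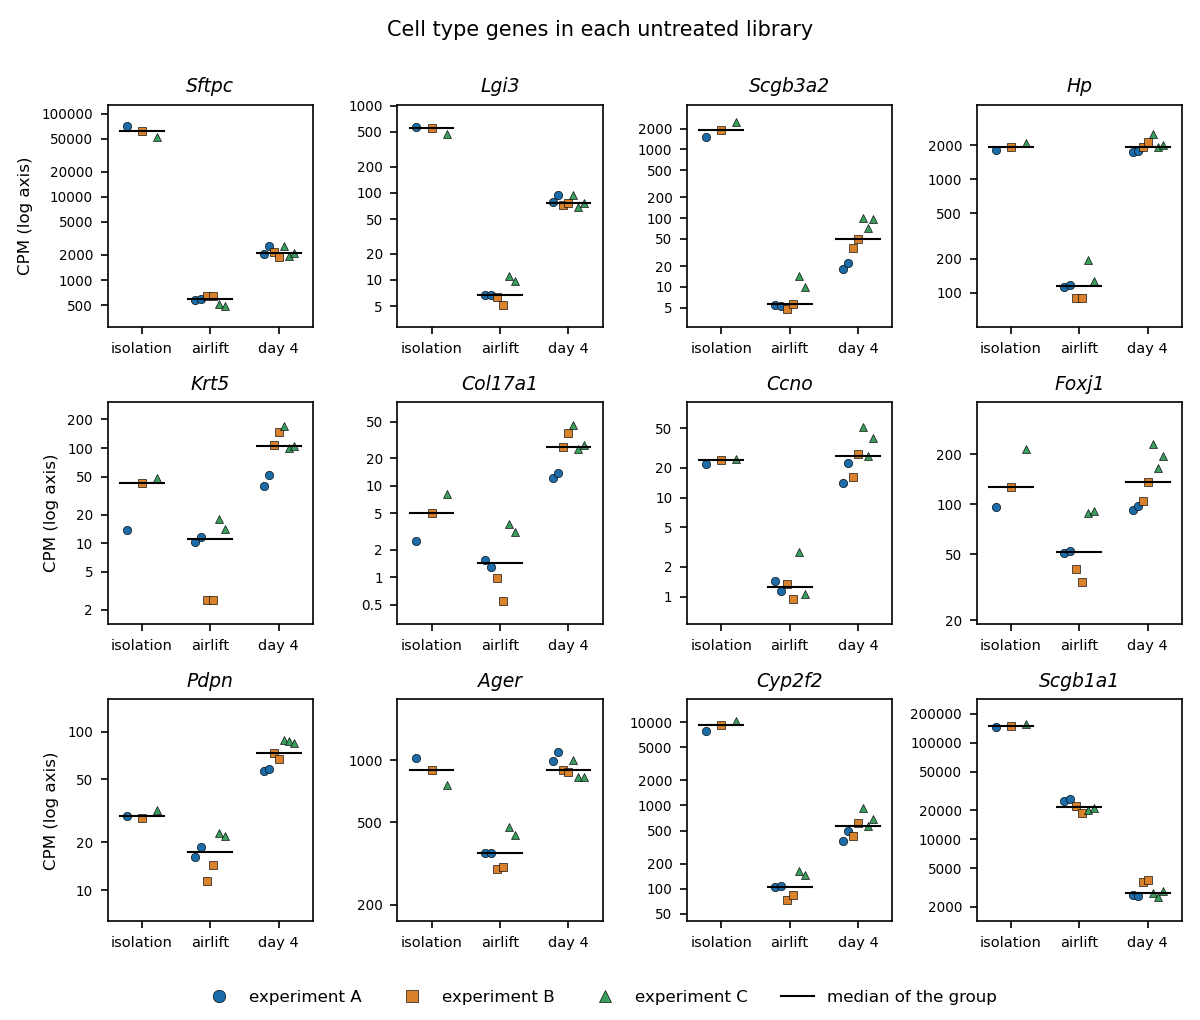
CPM on a log axis of 12 genes of lung epithelial cell types in each untreated library, with 3 libraries of freshly isolated cells, 6 of airlift and 7 of day 4. Points are libraries, their shape and colour give the experiment and the bar is the median of the group. Day 4 lies above airlift in every library for 11 of the genes and below it for Scgb1a1.

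Transcription factors of the lung lineages showed no common direction, with 8 of 18 tested higher, 8 lower and a median of 0.02. Nkx2-1, the factor that defines the lung epithelium, was at 167, 173 and 184 CPM at airlift and 175, 227 and 264 CPM at day 4 and rose by 0.34 ± 0.08 (edgeR adjusted p = 0.0014), with overlapping groups. Klf5 fell by 1.04 ± 0.07 and Foxa1 fell by 0.48 ± 0.05 on the log2 scale, while Sox9, a factor of the distal tip of the developing lung, rose by 1.58 ± 0.23, with 1.10, 1.53 and 3.80 CPM at airlift and 4.89, 5.58 and 9.71 CPM at day 4.

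Genes of glycolysis fell. This pathway splits glucose to pyruvate and lactate without oxygen, and most of its enzymes are targets of the hypoxia-inducible factors (HIF), which bind DNA when oxygen is low. Of 21 enzymes and glucose carriers tested 17 fell and 2 rose, with a median of -1.32, and 13 fell at least 2-fold. HIF binds the core ACGTG of the hypoxia response element. The core was searched on both strands, where it reads CACGT on the other strand and where CACGTG holds it on both. The search took the 250 bases upstream of each start in the RefSeq promoter table (build GRCm38.p6), and a match at any start of a gene counted. The core was found for 10 of the 20 glycolysis genes with an entry (50%), for 11 of 16 HIF target genes (68.8%) and for 18.5% of the 27025 genes of the table. The lists were drawn up as genes of these pathways, and the share among genes that did not fall was not counted. These shares therefore do not bear on the falls. A match is a run of letters and not a shown binding site. With both strands counted, Ldha held 5 matches in its 250 bases and Pgk1 2, while Car9 and Pkm held 1 each. These 100-base windows of 3 genes that fell, picked as examples and without Pkm, show the core in capitals, 5′ to 3′ in the direction of the gene.
Pgk1 (chrX:106186914-106187013, + strand): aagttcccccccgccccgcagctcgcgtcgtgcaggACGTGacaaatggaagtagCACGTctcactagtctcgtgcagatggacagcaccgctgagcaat
Ldha (chr7:46845704-46845803, + strand): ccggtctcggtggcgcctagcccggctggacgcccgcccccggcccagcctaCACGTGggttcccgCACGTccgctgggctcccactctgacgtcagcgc
Car9 (chr4:43506926-43507025, + strand): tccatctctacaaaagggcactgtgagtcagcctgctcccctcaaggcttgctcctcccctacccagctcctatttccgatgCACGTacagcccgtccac

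Pgk1, which makes ATP in the pathway, was at 1939, 2014, 1999, 1817, 1989 and 2008 CPM in the airlift libraries and at 420.3, 387, 434, 363, 338, 438 and 428 CPM in those of day 4, in the order of experiments A, B and C. Its level lay in a narrow band within each stage, and no day 4 library came near the airlift libraries or down to the fresh level of 203 ± 9.94 CPM (SD, n = 3). Ldha, which turns pyruvate into lactate, had 2570, 2866 and 3040 CPM at airlift and 843, 989.9 and 1145 CPM at day 4 and fell by 1.53 ± 0.07 on the log2 scale (edgeR adjusted p = 2.99e-11). Pfkp, a form of the phosphofructokinase that commits sugar to the pathway, fell by 2.11 ± 0.07 and Pfkl, another form, fell by 1.92 ± 0.06, while Pfkm, the muscle form, did not pass the test (0.06 ± 0.09). Slc2a1, the main glucose carrier, fell by 1.13 ± 0.08, from 204, 273 and 347 CPM to 113, 131 and 147 CPM. The 2 that rose were Slc2a3, a carrier known from neurons (1.37 ± 0.13), and Eno2, the neuronal form of enolase (1.10 ± 0.12). Gapdh fell by 1.24 ± 0.11 and Aldoa fell by 1.32 ± 0.09, but reads of these genes and of Pgk1 can be split with near-identical copies elsewhere in the genome, so their levels are uncertain.

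Of 20 HIF target genes tested 16 fell and none rose, with a median of -1.26 and 12 falls of at least 2-fold (edgeR, with 1 higher at an unadjusted p below 0.05 and 0 by DESeq2). In this list Vegfa, the vascular growth factor, was at 390.1, 472 and 668 CPM at airlift and 457, 531 and 619 CPM at day 4, a difference of 0.01 ± 0.08 (edgeR adjusted p = 0.9). Car9, a carbonic anhydrase of hypoxic cells, had 17.01, 21.5 and 28.3 CPM at airlift and 2.29, 2.52 and 2.75 CPM at day 4 and fell by 3.18 ± 0.09 on the log2 scale (edgeR adjusted p = 2.70e-13). Ndufa4l2, which lowers the activity of the respiratory chain under hypoxia, fell by 4.38 ± 0.14, from 8.89, 11.1 and 14.2 CPM to 0.342, 0.548 and 0.758 CPM, and had 0 counts in fresh cells. Bnip3, which marks mitochondria for removal, had 515, 544 and 642 CPM at airlift and 63.6, 89.9 and 105 CPM at day 4 and fell by 2.69 ± 0.10, and Pdk1, the kinase that keeps pyruvate out of mitochondria, fell by 2.01 ± 0.09. Egln1, the oxygen-sensing hydroxylase that is itself a HIF target, fell by 1.54 ± 0.05 and Ndrg1 fell by 2.80 ± 0.08. Among the genes named here as fallen, no day 4 library reached the airlift range. The other 3 that missed the threshold were Car12 (0.63 ± 0.29, called at 0.74 without replicate 1 of day 4 in experiment A and at 0.76 without replicate 3 in C), Ddit4 (0.23 ± 0.14) and Bhlhe40 (0.09 ± 0.09), and for Ddit4 and Bhlhe40 the change differed between the experiments (adjusted p = 0.0025 and adjusted p = 0.0027, edgeR interaction test). Without experiment C, Ddit4 (0.56), Bhlhe40 (0.32) and Vegfa (0.17) were called higher at day 4.

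Nuclear genes of the respiratory chain stayed near the level of airlift. Of 20 nuclear genes of the chain 4 rose and 1 fell, with a median of 0.07 and every log2 change between -0.15 and 0.24. Of 11 genes encoded in the mitochondrial genome 2 rose (COX1 and CYTB) and 2 fell (ND2 and ND4). ND2, a subunit of complex I, fell by 0.59 ± 0.06 on the log2 scale, from 2485, 2716 and 3095 CPM to 1639, 1902 and 2384 CPM, and COX1, a subunit of complex IV, rose by 0.31 ± 0.06, with 5479, 6010 and 6518 CPM at airlift and 6614, 7604 and 8808 CPM at day 4. Neither gene's groups overlapped. CYTB lost its call without either airlift replicate of experiments A or C or replicate 1 of day 4 in A or B (log2 changes of 0.13 to 0.15), and ND4 lost it without any 1 of 9 of the 13 libraries (-0.15 to -0.11). Mitochondrially encoded genes took 2.17 ± 0.15% of counts at airlift (SD, n = 6) and 2.25 ± 0.23% at day 4 (SD, n = 7).

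Sterol synthesis fell with few exceptions. Of 21 genes, 20 fell and 1 rose, with a median of -1.14 that was close to the same in experiments A, B and C (-1.14, -1.15 and -1.12). Idi1, an enzyme of isoprenoid synthesis, had 46.7, 49.6 and 64.2 CPM at airlift and 11.6, 13.9 and 17.4 CPM at day 4 and fell by 1.91 ± 0.08 on the log2 scale (edgeR adjusted p = 7.78e-12). Lss, which closes the sterol ring, fell by 1.87 ± 0.07 with 64.9, 77.2 and 95.4 CPM at airlift and 19.1, 20.9 and 23.9 CPM at day 4, and Fdps fell by 1.51 ± 0.04. Hmgcs1, at the entry of the pathway, went from 572 ± 57.5 CPM in fresh cells (SD, n = 3) to 159, 163 and 195 CPM at airlift and 81.5, 88.2 and 97.8 CPM at day 4, so the 3 stages did not overlap. Dhcr7, which makes the last step to cholesterol, was the one that rose, by 0.34 ± 0.08, with overlapping groups. The fatty acid and phospholipid genes had no common direction (6 of 18 rose, 9 fell, median -0.06), with Scd1 and Acss2 at the ends. Scd1, the desaturase that makes oleate, had 1028, 1083 and 1532 CPM at airlift and 6659, 7486 and 8921 CPM at day 4 and rose by 2.65 ± 0.10 (edgeR adjusted p = 1.48e-11), and the day 4 libraries lay within the range of fresh cells (7341 ± 1659 CPM, SD, n = 3). Acss2, which makes acetyl-CoA from acetate, fell by 2.24 ± 0.06, from 32.5, 34.6 and 42.7 CPM to 6.68, 7.92 and 8.14 CPM.

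Antioxidant genes controlled by NRF2 fell in 10 of 15 cases and rose in 2, with a median of -0.83. Gclm, a subunit of the enzyme that starts glutathione synthesis, had 181, 219.9 and 262 CPM at airlift and 56.4, 86.4 and 92.5 CPM at day 4 and fell by 1.41 ± 0.11 (edgeR adjusted p = 2.04e-07). Hmox1, which breaks down heme, fell by 1.41 ± 0.12, from 722, 865 and 897 CPM to 199, 334 and 375 CPM, and Gpx2, a glutathione peroxidase of epithelia, fell by 1.19 ± 0.07. Sod2, the superoxide dismutase of mitochondria, rose by 0.90 ± 0.11. Of 14 chaperones and folding enzymes of the endoplasmic reticulum 11 fell and 3 rose, with a median of -0.46. Hspa5, the main chaperone there, was at 1320 and 1295, 1401 and 1335 and 974 and 975 CPM in the airlift pairs of experiments A, B and C, and at 561, 661 and 722 CPM at day 4. The pair of experiment C was the lowest, and the test of a different change called Hspa5 (adjusted p = 0.0025, edgeR interaction test).

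Interferon response genes fell as a group. Interferons signal through a complex of transcription factors that binds the interferon-stimulated response element of genes against viruses. Of 28 tested 26 fell and none rose, with a median of -1.17 (edgeR, with 0 higher at an unadjusted p below 0.05 or by DESeq2, as also for the class I and proliferation lists). Its element was searched as GAAA, a pair of any bases and GAAA, on both strands of the same 250 bases, and was found for 11 of 21 genes with an entry (52.4%) and for 3.46% of all 27025 genes. The list was drawn up as interferon response genes, so its share of the element does not bear on the falls. Windows of 3 genes that fell show the element in capitals (TTTC is GAAA on the other strand).
Oas3 (chr5:120777685-120777784, - strand): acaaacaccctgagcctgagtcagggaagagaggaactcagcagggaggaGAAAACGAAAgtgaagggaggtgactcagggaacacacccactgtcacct
Ddx60 (chr8:61927987-61928086, + strand): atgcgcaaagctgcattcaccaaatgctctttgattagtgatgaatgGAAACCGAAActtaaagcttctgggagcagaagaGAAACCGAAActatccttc
Gbp2 (chr3:142620554-142620653, + strand): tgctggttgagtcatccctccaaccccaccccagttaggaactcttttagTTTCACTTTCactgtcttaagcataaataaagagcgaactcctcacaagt

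Oas3, which makes the messenger that starts RNA decay in infected cells, was at 22.2, 20.8, 21.8, 17.7, 18.2 and 23.2 CPM in the airlift libraries (A, B and C in turn) and at 2.16, 3.24, 3.37, 2.35, 3.81, 2.39 and 2.84 CPM in those of day 4. All day 4 libraries were far below all airlift libraries and above the mean of fresh cells, 0.739 ± 0.215 CPM (SD, n = 3). Ddx60, an RNA helicase, fell by 2.13 ± 0.12 on the log2 scale and Gbp2, a guanylate-binding protein, fell by 1.35 ± 0.10. Irf7, the factor that amplifies the response, had 79.02, 93.3 and 98.3 CPM at airlift and 15.7, 19.6 and 30.00 CPM at day 4 and fell by 2.17 ± 0.11 (edgeR adjusted p = 1.45e-09), and its day 4 median lay near the fresh mean of 20.1 ± 1.44 CPM. Isg15, a ubiquitin-like protein, had 28.3, 30.5 and 37.9 CPM at airlift and 6.02, 8.06 and 12.9 CPM at day 4 and fell by 1.90 ± 0.14. The 2 genes that missed the threshold were Ifit2 (-0.20 ± 0.15) and Rsad2 (-1.11 ± 0.44, edgeR adjusted p = 0.0502). For Rsad2 the day 4 libraries were at 4.83, 5.28, 9.44, 6.55, 36.8, 7.42 and 9.85 CPM (A, B and C in turn), with replicate 1 of experiment C above all airlift libraries (16.8, 20.1 and 23.9 CPM) and the other 6 below them. Without replicate 1 of day 4 in experiment C, Ifit2 and Rsad2 passed (-0.33 and -1.53) and 28 of 28 fell. Rsad2 also passed without either airlift replicate of experiment C (-1.36 and -1.32). Oas, Ifit and Gbp genes have close relatives, and reads can be split between them.

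Of 11 genes of MHC class I presentation 8 fell and none rose, with a median of -0.34. Psmb9, a subunit of the immunoproteasome, had 18.96, 25.2 and 28.3 CPM at airlift and 9.57, 11.5 and 15.1 CPM at day 4 and fell by 1.06 ± 0.10 (edgeR adjusted p = 1.40e-07), and the peptide pump subunit Tap1 fell by 0.66 ± 0.06. The 7 class II genes were mixed, with 4 higher and 2 lower at day 4 and a median of 0.14. Cd74, the chain that guards the class II groove, rose by 0.23 ± 0.04.

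**Figure D2:**
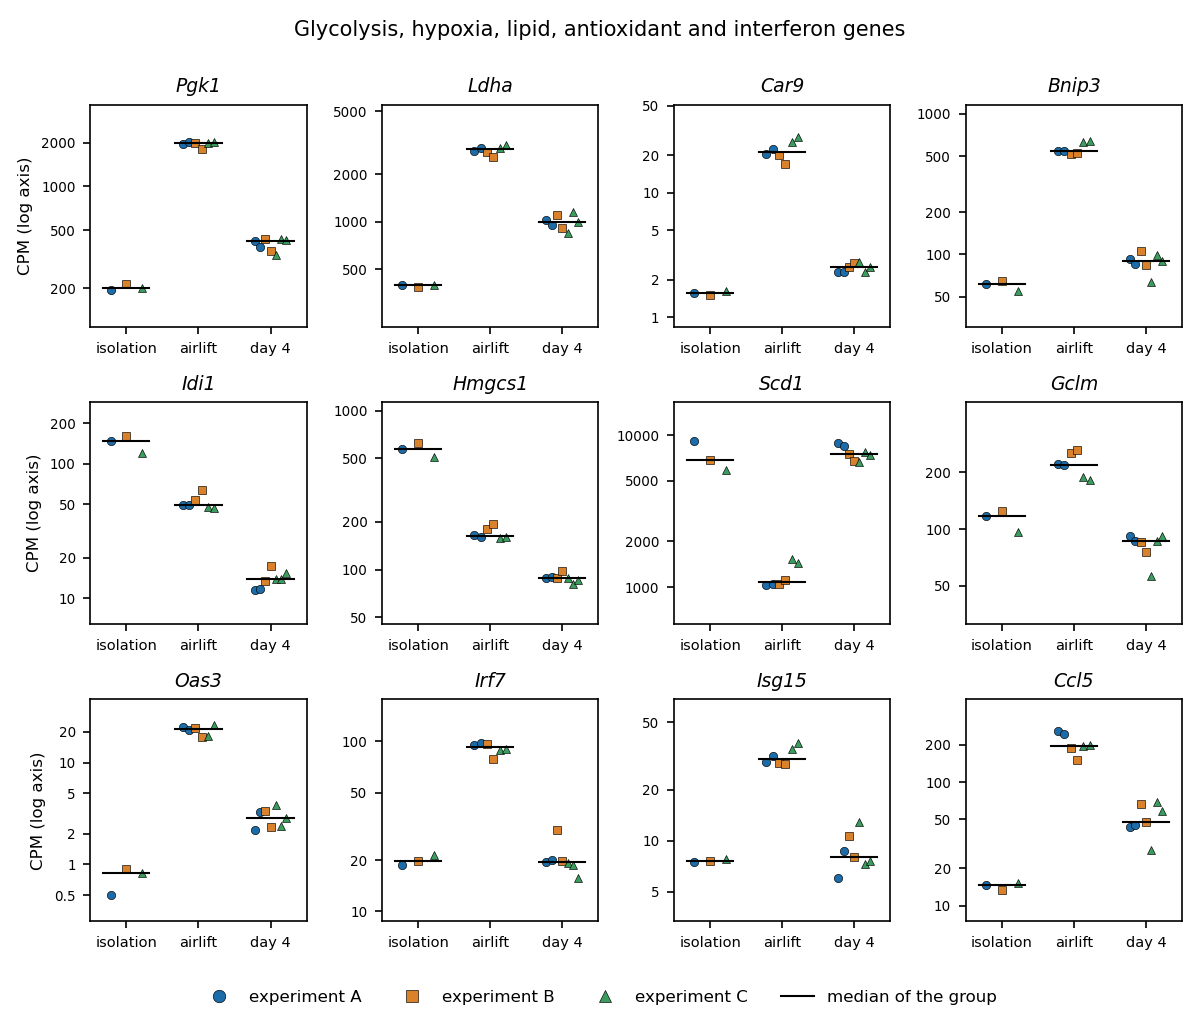
CPM on a log axis of 12 genes of glycolysis, hypoxia, lipid synthesis, antioxidant defence and the interferon response in each untreated library (3 of isolation, 6 of airlift, 7 of day 4). Points are libraries, shape and colour give the experiment and bars are group medians. Scd1 is higher in every day 4 library than at airlift, and the other 11 genes are lower.

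Chemokines and cytokines went the other way from the interferon genes. Of 21 tested 13 rose and 2 fell, with a median of 0.93. Cxcl3, which attracts neutrophils, had 10.5, 15.7 and 19.6 CPM at airlift and 68.1, 102 and 136 CPM at day 4 and rose by 2.79 ± 0.18 (edgeR adjusted p = 8.89e-08). Csf2, the growth factor of alveolar macrophages, had 1.74, 2.03 and 2.77 CPM at airlift and 7.38, 10.2 and 12.99 CPM at day 4 and rose by 2.26 ± 0.12. The alarmins Il1a and Il33 rose by 2.04 ± 0.18 and 1.74 ± 0.20, and Il18 by 1.32 ± 0.16. Ccl5, an interferon-responsive chemokine, had 151, 197 and 259 CPM at airlift and 28.1, 47.5 and 69.6 CPM at day 4 and fell by 2.01 ± 0.21. Of 13 antimicrobial and acute-phase genes tested 7 rose and 3 fell, with a median of 0.60. Lcn2, an iron-scavenging protein, had 38.4, 43.1 and 80.9 CPM at airlift and 91.7, 174 and 202 CPM at day 4 and rose by 1.45 ± 0.14, while Lyz1, a lysozyme of airway secretory cells, fell by 2.49 ± 0.19. The summed level of macrophage and monocyte markers was also higher at day 4, as given next, while 7 of the 15 rose and 7 fell. Their part in the groups above was not tested.

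Transcripts of cells other than epithelium were present at both stages. The summed level of 15 macrophage and monocyte markers was 3164 to 3659 CPM at airlift and 5972 to 12851 CPM at day 4, most of it from Lyz2, which AT2 cells express too. Of the 15, 7 rose and 7 fell. Marco, a receptor of alveolar macrophages, had 93.8, 126 and 135 CPM at airlift and 212, 405 and 492 CPM at day 4 and rose by 1.71 ± 0.16 (edgeR adjusted p = 2.68e-06), and Mrc1 rose by 1.08 ± 0.15. C1qa, a complement chain of tissue macrophages, had 15.3, 16.2 and 18.9 CPM at airlift and 4.12, 8.04 and 11.2 CPM at day 4 and fell by 0.98 ± 0.17, and Cx3cr1 fell by 2.01 ± 0.20, while Csf1r did not pass the test (-0.08 ± 0.12). Replicate 1 of day 4 in experiment C was the lowest day 4 library for Marco (211.9 CPM), Lyz2 (5026 CPM), C1qa and Adgre1. None of the 15 was at 0 in a whole group. Of 9 lymphocyte markers tested 2 rose and none fell. The summed level of all 11 lymphocyte markers was 37.7 to 46.4 CPM at airlift and 30.2 to 57.2 CPM at day 4. Of 12 endothelial markers 5 fell and 2 rose, and their sum went from 104.4 to 129.3 CPM at airlift to 72.0 to 96.3 CPM at day 4. Pecam1, a defining marker, fell by 1.18 ± 0.13, from 2.72, 3.09 and 5.06 CPM to 0.773, 1.55 and 2.59 CPM, and Kdr rose by 1.27 ± 0.12. Of 3 neutrophil markers tested 1 rose and 2 fell, while the defining markers Ly6g, Mpo and Elane were too low to test, with Mpo at 0 in all 7 libraries of day 4.

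All 10 mesenchymal markers tested rose, with a median of 2.07. Their summed level, with Tagln and Twist1 included, was 160.1 to 268.3 CPM at airlift and 459 to 675 CPM at day 4. Col1a1, the main collagen of fibroblasts, was at 19.6, 19.01, 15.2, 14.95, 43.1 and 35.9 CPM in the airlift libraries (A, B and C in turn) and at 125, 144, 118, 163, 258, 153 and 137 CPM in those of day 4. Every day 4 library was above every airlift library, and within each stage experiment C held the highest one. Fresh cells were at 3.03 ± 0.663 CPM (SD, n = 3). Col1a2 rose by 3.21 ± 0.17, Col3a1 by 2.47 ± 0.14 and Acta2, an actin of smooth muscle and myofibroblasts, by 2.10 ± 0.16 with 3.64, 4.90 and 9.90 CPM at airlift and 17.3, 24.4 and 47.7 CPM at day 4. Pdgfra, a receptor of fibroblasts, stayed low, with 0.874, 1.02 and 1.37 CPM at airlift and 1.54, 1.83 and 2.17 CPM at day 4, and rose by 0.75 ± 0.15. Vim rose by 0.61 ± 0.13 and was higher in fresh cells than at either stage of culture, at 1266 ± 73.3 CPM.

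Matrix, integrin and wound genes rose in 17 of 22 cases and fell in 2 (Mmp9 and Plau), with a median of 0.53. The mesenchymal markers moved with them, and their part in this rise was not tested. Mmp9 was not called with all 23 libraries in the fit (-0.28) or without experiment B (-0.22) or C (-0.26). Tnc, which encodes tenascin C, a matrix protein of wounds, had 28.99, 34.3 and 44.4 CPM at airlift and 119, 164 and 314 CPM at day 4 and rose by 2.24 ± 0.15 (edgeR adjusted p = 1.23e-07). Fn1, which encodes fibronectin, had 1359, 1454 and 1805 CPM at airlift and 2789, 4310 and 4899 CPM at day 4 and rose by 1.33 ± 0.13, with 141 ± 15.7 CPM in fresh cells (SD, n = 3). Sparc, a matrix-binding protein, rose by 1.61 ± 0.11, and Timp1, an inhibitor of matrix proteases, by 1.75 ± 0.10. Lama3, a chain of the laminin under epithelia, rose by 1.22 ± 0.13. No group overlapped the other for these 5 genes. Targets of YAP and TGF-beta had no common direction (5 of 16 rose, 3 fell, median -0.05).

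**Figure D3:**
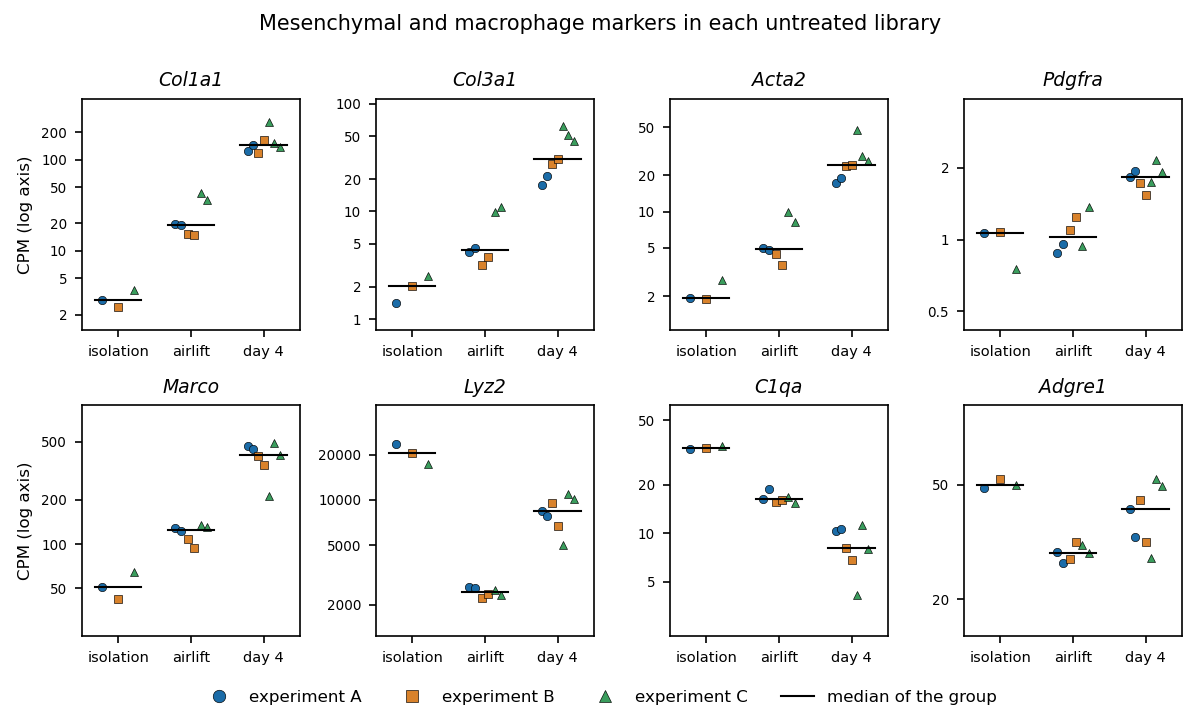
CPM on a log axis of 4 mesenchymal markers (upper row) and 4 macrophage markers (lower row) in each untreated library (3 of isolation, 6 of airlift, 7 of day 4). Points are libraries, shape and colour give the experiment and bars are group medians. The collagens and Acta2 rise from isolation to airlift to day 4, and C1qa falls at each stage while Marco rises.

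Proliferation genes fell by small amounts. Of 24 tested 21 fell and none rose, with a median of -0.53, and Cdc6, which licenses replication origins, was the single one to fall at least 2-fold. Mki67, the standard marker of dividing cells, had 61.3, 69.6 and 85.96 CPM at airlift and 50.1, 53.9 and 61.6 CPM at day 4 and fell by 0.36 ± 0.06 (edgeR adjusted p = 1.29e-04), with overlapping groups. Ccna2, a cyclin of S phase and mitosis, had 24.97, 26.6 and 31.96 CPM at airlift and 13.2, 15.5 and 17.9 CPM at day 4 and fell by 0.84 ± 0.07, without overlap. Tyms, Ccne1 and E2f1 did not pass the test, though E2f1 passed without replicate 1 of airlift in experiment B (0.16). Of 18 p53 targets and cell cycle inhibitors 8 rose and 4 fell, with a median of 0.14. Cdkn2a, the inhibitor p16 and Arf locus, had 0.633, 1.06 and 1.47 CPM at airlift and 5.13, 7.84 and 9.95 CPM at day 4 and rose by 2.82 ± 0.18 (edgeR adjusted p = 1.74e-09), and Cdkn1a, the inhibitor p21, did not pass the test (648, 718 and 739.6 CPM at airlift and 622, 675 and 776 CPM at day 4, -0.06 ± 0.06). The 16 genes of the Krt8-high transitional state, an intermediate between AT2 and AT1 cells after injury, were split, with 6 higher and 6 lower. Krt8 itself had 2251, 2601 and 2667 CPM at airlift and 1347, 1583 and 1747 CPM at day 4 and fell by 0.68 ± 0.06, Krt19 fell by 1.11 ± 0.07, and Itgb6 and Clu rose by 1.04 ± 0.07 and 0.84 ± 0.07.

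**Figure D4:**
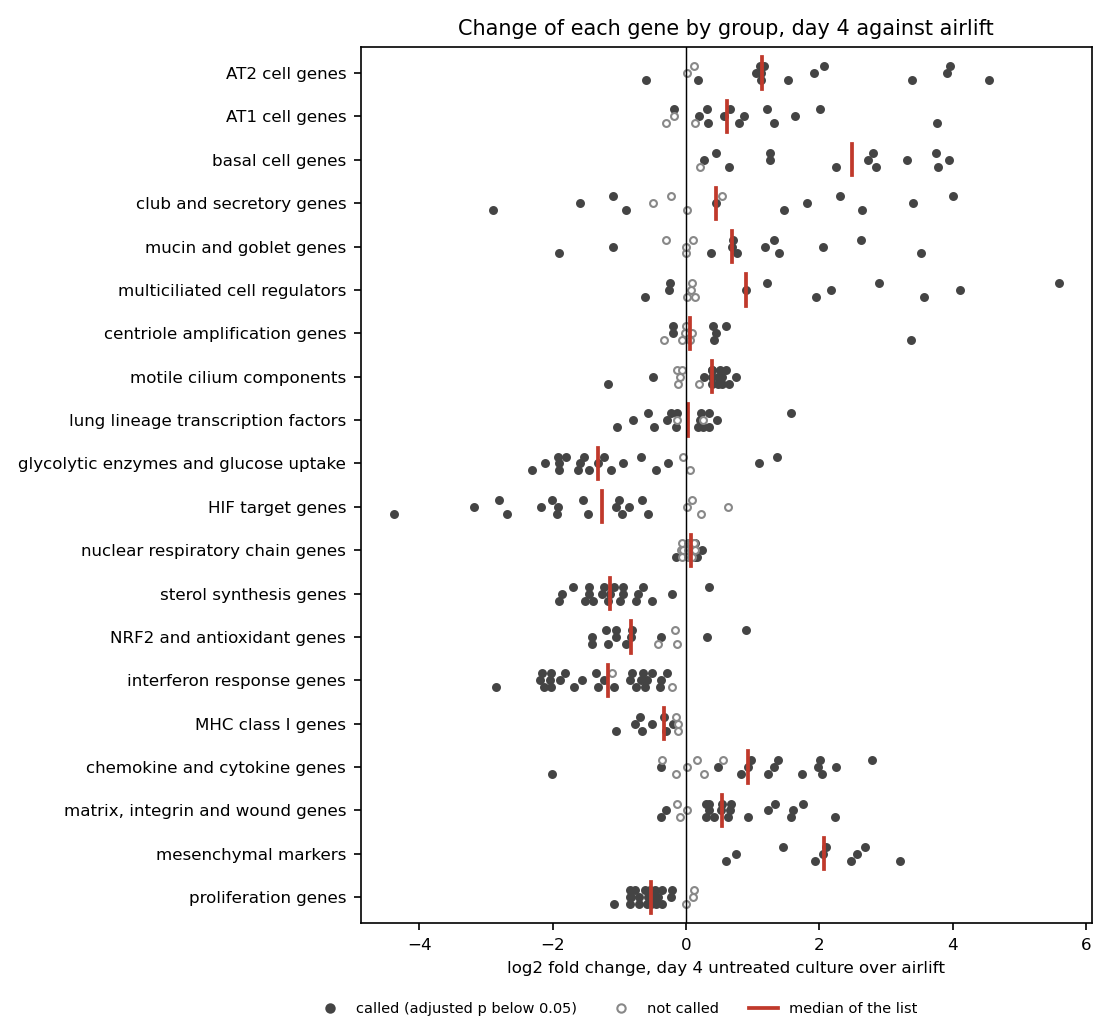
Log2 fold change of day 4 untreated culture over airlift for each tested gene of 20 gene groups (x axis, log2 scale). Filled points are called genes, open points are not called and red bars are group medians. The medians run from -1.32 for glycolytic enzymes and glucose uptake to 2.49 for basal cell genes, and the nuclear genes of the respiratory chain lie close to 0.

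The largest rises and falls were mostly outside these groups. Ranked here are called genes whose log2 CPM averaged 2 or more, with 1 sign in all experiments and a symbol that is not a bare gene model name. Among them Cym, which encodes the stomach protease chymosin, rose most, from 0.292, 0.717 and 2.18 CPM to 59.5, 85.5 and 106 CPM (6.52 ± 0.31, edgeR adjusted p = 7.77e-09). Rgs5 and Rgs4, regulators of G-protein signalling, were also among the 10 largest of these rises, Rgs5 with 0.0496, 0.108 and 0.297 CPM at airlift and 4.79, 11.5 and 17.2 CPM at day 4 (6.42 ± 0.33) and Rgs4 with 0.736, 0.859 and 2.48 CPM at airlift and 38.8, 56.3 and 63.5 CPM at day 4 (5.55 ± 0.27). Cym, Rgs5 and Rgs4 were at most 3.90 CPM at airlift and in fresh cells, and none of their groups overlapped. Ivl, which encodes involucrin, a protein of the squamous envelope, rose by 4.66 ± 0.16 and at day 4 spanned the fresh level of 14.2 ± 0.682 CPM (SD, n = 3). Other squamous and hillock genes were mixed (6 of 13 rose, 5 fell): Krt6a rose by 2.95 ± 0.23 and Krt4, a keratin of hillocks, fell by 2.34 ± 0.24, from 54.6, 58.1 and 65.5 CPM to 4.58, 13.5 and 25.3 CPM. Olfm4 and Spon1 rose by 4.20 ± 0.19 and 4.20 ± 0.16, Pcdh8 by 4.45 ± 0.38 and Cd177 by 4.30 ± 0.24.

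Among the falls of genes ranked by the same rule, Tmt1b had the largest, from 18.03, 24.2 and 28.6 CPM to 0.142, 0.400 and 0.566 CPM (-5.91 ± 0.14), with 0.0463 ± 0.0402 CPM in fresh cells (SD, n = 3). Stab2, a scavenger receptor known from sinus endothelium, fell by 5.03 ± 0.23, from 8.89, 10.2 and 12.4 CPM to 0.0514, 0.284 and 0.648 CPM, and Muc2, the gel mucin of the gut, fell by 4.46 ± 0.12, from 15.4, 21.7 and 25.01 CPM to 0.685, 1.03 and 1.25 CPM. These 3 were higher in all airlift libraries than in any fresh or day 4 library. Fgfbp1, a carrier of fibroblast growth factors, had 162, 173 and 179 CPM at airlift and 15.3, 21.6 and 22.96 CPM at day 4 and fell by 3.08 ± 0.07 (edgeR adjusted p = 8.03e-14), and its fresh level of 185 ± 15.7 CPM overlapped that of airlift. Phgr1 fell by 3.35 ± 0.22, Apol7c fell by 3.19 ± 0.18 and Serpina9 fell by 3.03 ± 0.13.

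For a small set of genes the change from airlift to day 4 differed between the experiments. The edgeR interaction test called 404 of 16719 genes (2.42%), and 3195 had an unadjusted p below 0.05. In 237 of the 404, experiment C lay farthest from the other two, in 121 B and in 46 A. The number called depended on single libraries: it was 2447 without replicate 1 of day 4 in experiment C and 87 without replicate 2 of airlift in experiment C. The 5 genes with the smallest p among those whose log2 CPM averaged 2 or more, and Edn2 and Egln3 with them, were called in each of the 16 alternative fits of this test.

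In these 7 genes it was the airlift pair of experiment C that stood high. Adm, which encodes adrenomedullin, a vasodilator peptide induced by hypoxia, was at 14.1, 12.5, 13.2 and 9.31 CPM in the 4 airlift libraries of experiments A and B and at 58.4 and 66.03 CPM in the pair of C. At day 4 all 7 libraries lay between 5.78 and 6.74 CPM, so the log2 change was -1.13, -0.79 and -3.30 in experiments A, B and C (adjusted p = 1.95e-05, edgeR interaction test). Fbxo32, a ubiquitin ligase of muscle wasting, was at 65.02, 69.8, 60.2 and 54.1 CPM against 189.6 and 194 CPM at airlift and at 67.8 to 81.9 CPM at day 4, with changes of 0.08, 0.31 and -1.35 in experiments A, B and C (adjusted p = 8.79e-06). Ankrd37, another HIF target, showed the same layout, 17.4, 20.8, 18.8 and 13.03 CPM against 53.8 and 54.9 CPM (adjusted p = 2.04e-04).

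Pthlh, a hormone-like peptide that acts from epithelium on mesenchyme, changed by 0.71, 1.84 and -0.97 in experiments A, B and C (adjusted p = 4.39e-05), and its airlift pairs were at 4.12 and 4.05, 2.63 and 2.08 and 12.8 and 13.2 CPM. Lif, a cytokine of the IL-6 family, changed by 0.84, 0.69 and -0.51 in experiments A, B and C (adjusted p = 9.21e-05). For Pthlh and Lif the libraries of experiments A and B were higher at day 4 than at airlift and those of C were lower. Edn2, which encodes an endothelin, was at 3.67, 4.24, 5.73 and 2.72 CPM in A and B and 38.4 and 38.1 CPM in C at airlift, and at most 1.44 CPM in all day 4 libraries. With counts summed per experiment and group, Edn2 (-3.29), Adm (-1.75) and Ankrd37 (-0.90) were not called between airlift and day 4. Of the 20 HIF target genes, 5 were called in this test (Egln3, Ankrd37, Adm, Ddit4 and Bhlhe40), and of the 21 glycolysis genes none (7 had an unadjusted p below 0.05, and DESeq2 called 2). Pgk1 changed by -2.31, -2.29 and -2.32 in experiments A, B and C.

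**Figure D5:**
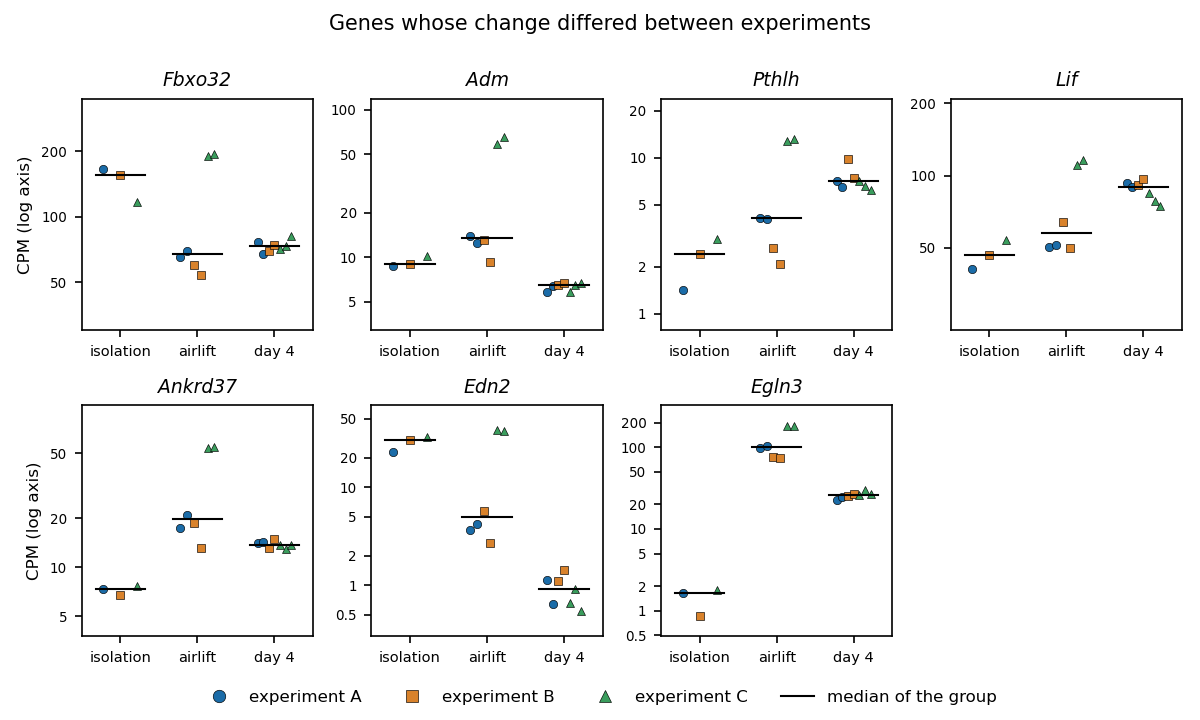
CPM on a log axis of 7 genes whose change differed between experiments, in each untreated library (3 of isolation, 6 of airlift, 7 of day 4). Points are libraries, shape and colour give the experiment and bars are group medians. The pair of airlift libraries of experiment C lies above the other 4 airlift libraries for each gene.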

How the data were processed

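Total RNA of untreated cultures was sequenced, and the authors deposited raw gene counts in 3 tables, 1 per experiment. STAR, DESeq2 and the build GRCm39 are named in the submitters' processing notes, with no version. The counting program and its strand setting were not given in these notes or in the labels. Each table held 41073 usable genes, since 25 lines that are fragments of the entries of 6 long genes were left out and those genes were not analysed here. Airlift (6 libraries) and day 4 controls (7) were compared with edgeR 4.0.16 in R 4.3.3 (filterByExpr minimum count 10, TMM, robust quasi-likelihood fit, experiment as block, adjusted p below 0.05). The difference between experiments was tested as a group by experiment interaction in the same libraries. CPM used TMM-scaled totals of the 23 libraries, where those compared held 32323375 to 39081663 counts. Of their gene counts between 1 and 19, 70.5 to 74.7% were even, so both reads of a pair may have been counted. The code was tested on simulated counts.

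The comparison, its gene lists and the genes named were chosen with earlier results of these data known. Named were the 10 largest called changes in each direction whose average log2 CPM was 2 or more, with 1 sign in all experiments and a symbol that is not a bare gene model name. Also named were fixed marker genes, up to 4 genes of smallest p in each list and, at that average level, the 5 of smallest p in the interaction. Others, such as Ldha, Irf7, Lgi3, Col1a1 and Wnt10a, were named after their values were seen. Alternatives covered scaling, filter, block, DESeq2 1.42.0 and left-out libraries or experiments.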

Additional observations from a re-analysis of the deposited data

Results flagged for a closer look

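Among 366 sets of CPM values (each gene named here, at airlift and at day 4), 29 held a library whose gap to the nearest other passed Dixon's 95% critical value, where chance flags about 1 in 20. Replicate 1 of day 4 in experiment C did so for 12 genes. It was the highest day 4 library for Acta2 (47.7 CPM), Col1a1 (258), Tnc (314), Sparc (1447), Rtkn2 (34.3), Sox9 (9.71), Ifit2 (26.5) and Rsad2 (36.8), and the lowest for Hmox1 (199), Gpx2 (87.9), Pfkp (53.9) and Trib3 (28.3). This library also held the lowest macrophage marker sum of day 4, 5972 CPM, and the highest mesenchymal one, 675 CPM, and the part of either in these values was not tested.

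Replicate 1 of airlift in experiment C was the highest airlift library for 7 genes, which were Ccno (2.82 CPM), Cym (2.18), Hp (194), Mcidas (0.817), Myb (7.004), Rgs4 (2.47) and Rtkn2 (2.33). Replicate 2 of airlift in experiment B was the highest for Csf2 (2.77 CPM) and Mrc1 (83.7) and the lowest for Cdkn1a (648), Hmox1 (722), Napsa (28.1), Ndrg1 (408) and Tubb4b (898), 7 genes in all. The other 3 were Irf7 (30.0 CPM) and Pthlh (9.74) in replicate 1 of day 4 in experiment B and Itgb6 (151) in replicate 1 of airlift in B.

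The change from airlift to day 4 differed between the experiments for Fbxo32 (adjusted p = 8.79e-06, edgeR interaction test), Adm (1.95e-05), Pthlh (4.39e-05), Lif (9.21e-05) and Ankrd37 (2.04e-04). In each of them the airlift pair of experiment C was above the other 4 airlift libraries.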

How the results depend on the processing

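The count of 9581 called genes lay between 7593 (counts summed per experiment and group) and 10013 (all 23 libraries in the fit) under the alternatives tried with all experiments, and was 7645, 8225 and 9275 without experiments A, B and C. Leaving out 1 library in turn gave 8954 to 9613, and DESeq2 called 9783. Same-numbered airlift and day 4 libraries did not deviate together (correlations of -0.063 to -0.007). The 2 airlift libraries of an experiment deviate from their mean as mirror images, so these correlations cannot decide whether the numbers pair libraries. With the replicate block 8789 genes were called, 4542 higher and 4247 lower. With library totals alone the median of all genes was -0.021. Of 40 lists recomputed, 5 had a count that moved by over 1.5 times. The respiratory chain genes that rose went from 4 to 1 with summed counts and to 1 without experiment A, and the tight junction genes that fell from 8 to 5 with summed counts. The lung factors that rose went from 8 to 4 without experiment A, and without experiment B the class II genes that rose from 4 to 2 and the neuroendocrine markers from 3 to 1. The 404 genes whose change differed between experiments became 991 with the DESeq2 likelihood ratio test, 1538 with no filter on low counts and 87 to 2447 without 1 library in turn. Of 183 named genes, 152 had no call gained, lost or turned under any alternative that tested them. A change of sign was counted only where the main or the alternative fit called the gene. Fbxo32, which was not called, turned from -0.41 to 0.19 without experiment C. The cause of these changes was not tested, beyond the smaller number of samples where libraries were summed or left out. In simulated counts of this design 16349 of 16544 genes had no change, and the experiments did not differ in level. Of 66 genes given a log2 change of 0.5, 62.12% were called. In the data 57.3% of genes were called, so that share is not the sensitivity of the comparison made here. In the test between experiments 10.61% of 66 such changes, given to experiment C alone, were called. Small differences between experiments can therefore be missed at this depth and number of libraries.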

Other observations

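Several pathways of epithelial culture outside the groups above also differed between airlift and day 4. Of 20 Wnt pathway genes tested 11 rose and 3 fell, with a median log2 change of 0.38. Wnt10a, a ligand known from skin and its appendages, had 0.158, 0.374 and 0.891 CPM at airlift and 3.50, 5.11 and 7.67 CPM at day 4 and rose by 3.59 ± 0.31, and Wnt10b rose by 1.95 ± 0.16. Notum, which inactivates Wnt ligands, rose by 1.06 ± 0.29 (not called, at 0.94, without experiment A). Axin2, a common readout of Wnt signalling, did not pass the test (-0.26 ± 0.20, called at -0.64 without experiment C). Of 15 Notch genes 6 rose and 2 fell (median 0.22): Jag1, a ligand, rose by 0.79 ± 0.09 and Hes1, a target, by 0.63 ± 0.06. Of 15 ion and fluid transport genes 7 rose and 5 fell (median 0.09). Slc26a4, which encodes the anion exchanger pendrin, had 0.941, 1.14 and 1.89 CPM at airlift and 5.64, 8.79 and 19.4 CPM at day 4 and rose by 3.09 ± 0.20, and Scnn1b and Scnn1g, subunits of the epithelial sodium channel, rose by 1.15 ± 0.10 and 0.77 ± 0.09, while the subunit gene Scnn1a fell by 0.31 ± 0.07. Cftr, the chloride channel, did not pass the test (-0.19 ± 0.11).

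Of 15 circadian clock genes 10 fell and 2 (Clock and Bhlhe41) rose, with a median of -0.49. Clock was not called without experiment C (0.12). Nr1d1, a repressor of the clock, had 60.8, 68.9 and 85.7 CPM at airlift and 24.9, 27.9 and 33.2 CPM at day 4 and fell by 1.29 ± 0.08, and Cry2 fell by 1.13 ± 0.07. The hour of harvest is not given in the sources used here. Of 15 immediate-early genes 8 fell and 5 rose (median -0.21), where Fosl1 fell by 1.31 ± 0.18 and Egr3 rose by 0.75 ± 0.23 (not called, at 0.45, without experiment C). Of 15 genes of amino acid supply and the integrated stress response 6 fell and 3 rose (median -0.10), and Trib3 fell by 1.34 ± 0.09. Of 12 xenobiotic genes tested 5 rose and 5 fell, among them Adh7, which fell by 1.68 ± 0.10, and Fmo2, which rose by 1.57 ± 0.13. Tight junction genes (5 of 16 rose, 8 fell) and epithelial identity genes (6 of 14 rose, 7 fell) had medians of -0.09 and -0.07, with Cldn1 higher by 0.89 ± 0.13 and Ovol2, a repressor of mesenchymal genes, by 1.66 ± 0.16.

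Markers of rare cells moved in different directions. Of 3 tuft cell markers tested 2 fell. The summed level of all 7 tuft cell markers was 79.8 to 100.3 CPM at airlift and 59.4 to 83.7 CPM at day 4. Of 6 neuroendocrine markers 3 rose, with Calca at 1.88, 2.32 and 3.10 CPM at airlift and 4.06, 5.98 and 6.25 CPM at day 4, and the neuroendocrine peptide gene Grp was at 0 in both groups. Of 4 ionocyte markers tested 2 rose and 1 fell, and the defining factor Foxi1 was at 0 in all airlift libraries. The summed level of all 6 ionocyte markers was 124.1 to 140 CPM at airlift and 209.5 to 431.1 CPM at day 4. Fresh cells held 379.5 to 400.7 CPM. With Foxi1 at 0, the airlift sum came from other genes of the list, so this sum does not measure the number of ionocytes. In experiment C at day 4 the ionocyte sum was 209.5, 414.2 and 431.1 CPM in replicates 1, 2 and 3. The macrophage marker sum of the same libraries was 5972, 12851 and 11976 CPM. The part of macrophages in the ionocyte sum was not tested. Mesothelial markers summed to 547 to 687 CPM at airlift and 546 to 775 CPM at day 4, and Msln, which carries most of that sum and is also made by epithelial cells, did not pass the test (0.07 ± 0.09).

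Beside the basal and HIF genes, the test of a different change between experiments called 4 of 15 club and secretory genes (Scgb1a1, Scgb3a1, Cbr2 and Bpifa1), 3 of 16 AT1 genes (Ager, Hopx and Pdpn) and 5 of 14 folding genes of the endoplasmic reticulum (Hspa5, Hsp90b1, Dnajc3, Hyou1 and Manf). It called none of 28 interferon, 21 sterol, 24 proliferation or 10 mesenchymal genes, where 2.42% of all genes were called. An unadjusted p below 0.05 was found for 5, 6, 12 and 2 of these, and DESeq2 called 3, 1, 1 and 2. Scgb1a1 changed by -3.30, -2.48 and -2.90 in experiments A, B and C and Ager by 1.54, 1.54 and 0.97 in experiments A, B and C, the same direction in each. The call for Scgb1a1 held in 9 of 16 alternative fits and was lost in 7 that each left out 1 library, with adjusted p of up to 0.086.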
